A study of Mus musculus with 16 samples.

Results

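The circadian clock genes are the 10 genes Arntl (also named Bmal1), Clock, Per1, Per2, Per3, Cry1, Cry2, Nr1d1, Nr1d2 and Dbp. They were chosen by name from the 21640 genes of the count table and not by their values, though with earlier results of these data known. All 10 were in the table and all 10 passed the filter on low counts at both time points. Whole thyroids of wild-type (WT) male C57Bl/6J mice were measured by bulk RNA-seq, 1 library per mouse, with 4 mice in each of 4 groups. The mice were 8 weeks old when the diets began, and they received either a chow control diet (CD) or a high-fat diet with sucrose water (HF+SD) for 3 or 6 weeks. On the CD were M53, M54, M55 and M96 at 3 weeks and M22, M43, M45 and M48 at 6 weeks. The HF+SD mice were M7, M19y, M20y and M31 at 3 weeks and M5, M18, M34 and M35 at 6 weeks.

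The circadian clock is a feedback loop of transcription that runs in nearly every cell. ARNTL and CLOCK pair and switch on genes that carry E-box sequences, among them the Per and Cry genes, whose proteins return to the nucleus and block the pair, and Nr1d1 and Nr1d2, whose proteins (REV-ERBα and REV-ERBβ) repress Arntl. Dbp is an output gene that encodes a PAR bZIP transcription factor acting on D-box sequences, and in many mouse tissues Arntl and Dbp peak at opposite times of day. The study kept its mice on a daily light cycle and rotated the groups at tissue collection to randomize its time, but the sources used here do not give the hour at which each of these thyroids was taken, and the part of collection time in any value below was not tested.

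Libraries held 30025256 to 48508653 counts, and levels are given as CPM, the count scaled to a common library size after TMM adjustment. The adjustment was made within each time point. Library names begin with a different number at each time point, so time and set of libraries cannot be told apart. Differences in level or spread between 3 and 6 weeks are therefore descriptions only. Genes known from thyrocytes, led by Tg, took 27.3% to 30.7% of the counts at 3 weeks and 4.87% to 14.8% at 6 weeks. Skeletal muscle genes, led by Myh4 and Ttn, took 0.00224% to 0.00993% at 3 weeks, 0.104% to 16.2% in the CD mice of 6 weeks (lowest in M22) and 0.125% to 0.448% in the HF+SD mice of 6 weeks. Marker genes of several cell types moved with diet at both times. At 3 weeks, 6 of 11 thyrocyte genes, 5 of 6 endothelial genes and 2 of 22 tested muscle genes were called higher on the HF+SD, and 6 of 7 adipocyte genes were called lower. Of all 17238 genes tested at 3 weeks, 14.9% were called by edgeR and 5.78% were called lower, so the muscle count did not exceed that background. At 6 weeks, 6 of 11 thyrocyte and 5 of 6 endothelial genes were called higher, and 24 of 25 tested muscle genes and 6 of 7 adipocyte genes lower, while 0 of 3 parathyroid genes were called at either time (0 at 3 weeks and 3 at 6 weeks at an unadjusted edgeR p under 0.05). Of all 18249 genes tested at 6 weeks, 21.5% were called, 9.55% were called lower and 36.2% had an unadjusted edgeR p under 0.05. In bulk tissue, fewer cells of a type and less RNA per cell cannot be told apart, and values with thyrocyte scaling or a muscle score as covariate are given where they change a call.

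Per kilobase of exon, the REV-ERB genes were the most abundant members in all 4 groups. In the CD mice of 3 weeks the order by mean level was Nr1d1 (58.7 ± 12.2 CPM per kb, SD, n = 4), Nr1d2 (27.8 ± 4.44), Dbp (19.5 ± 7.07), Per1 (16.7 ± 1.64), Clock (7.41 ± 0.67), Per2 (5.67 ± 0.96), Cry2 (4.89 ± 1.87), Arntl (2.68 ± 1.11), Per3 (2.34 ± 0.63) and Cry1 (1.91 ± 1.16). Neighbours in this order from Nr1d2 to Per1, and from Clock to Cry1, lay within the spread between mice, whereas Nr1d1 stood above Nr1d2, and Per1 above Clock, in mean and range. At 6 weeks Nr1d2 and Nr1d1 changed places in both diets, at 32.05 ± 3.73 and 28.0 ± 11.4 CPM per kb in the CD mice. The exons of Nr1d1 share 263 bases (8.55% of its exon length) with Thra on the opposite strand, and those of Dbp share 539 bases (18.01%) with Sphk2, so without strand in the counting some reads of each pair cannot be told apart.

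Promoter windows of 300 bases, with 250 before and 50 after an annotated transcription start, were matched for 9 of the 10 members in RefSeq on GRCm38.p6. A set of 4 short motifs was searched on both strands without allowing for mismatches: the E-box CACGTG, bound by ARNTL and CLOCK, the D-box TTATGTAA, bound by the PAR bZIP factors, the half-site AGGTCA of the ROR and REV-ERB element (RORE), and the cAMP response element TGACGTCA. They occurred in 7.15%, 0.938%, 16.3% and 1.79% of all 32851 windows. The windows below belong to the 3 members that fell on the HF+SD at 3 weeks and to Arntl, the activator of the loop, and capitals mark the motif matches. The windows lie at chr11:69098699-69098998 (plus strand, Per1), chr4:151044616-151044915 (minus strand, Per3), chr14:18239057-18239356 (minus strand, Nr1d2) and chr7:113207261-113207560 (plus strand, Arntl), and each reads 5′ to 3′ along its gene.
Per1: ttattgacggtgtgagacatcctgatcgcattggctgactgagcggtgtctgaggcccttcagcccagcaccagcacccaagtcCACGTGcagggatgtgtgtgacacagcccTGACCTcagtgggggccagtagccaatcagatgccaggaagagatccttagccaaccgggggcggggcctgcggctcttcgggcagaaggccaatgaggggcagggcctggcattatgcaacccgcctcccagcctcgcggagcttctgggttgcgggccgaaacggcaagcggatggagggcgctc
Per3: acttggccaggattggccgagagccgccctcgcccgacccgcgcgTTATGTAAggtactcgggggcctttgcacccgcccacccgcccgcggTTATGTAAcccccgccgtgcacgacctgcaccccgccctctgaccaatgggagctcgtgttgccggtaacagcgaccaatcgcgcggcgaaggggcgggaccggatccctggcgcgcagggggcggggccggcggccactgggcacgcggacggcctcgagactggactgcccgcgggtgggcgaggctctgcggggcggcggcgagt
Nr1d2: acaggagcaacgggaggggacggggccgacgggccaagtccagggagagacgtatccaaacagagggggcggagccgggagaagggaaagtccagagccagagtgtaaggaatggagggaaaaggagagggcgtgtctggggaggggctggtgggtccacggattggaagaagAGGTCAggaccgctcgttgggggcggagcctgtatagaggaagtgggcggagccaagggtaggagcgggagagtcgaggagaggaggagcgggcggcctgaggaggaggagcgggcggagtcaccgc
Arntl: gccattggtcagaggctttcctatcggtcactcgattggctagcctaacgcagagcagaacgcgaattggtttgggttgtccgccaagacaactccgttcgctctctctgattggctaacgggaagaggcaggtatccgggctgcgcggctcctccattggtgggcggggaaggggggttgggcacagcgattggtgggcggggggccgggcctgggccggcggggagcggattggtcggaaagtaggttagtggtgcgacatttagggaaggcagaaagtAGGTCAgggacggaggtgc
Per1 and Arntl each have 2 windows, of which the printed one holds the matches and the other holds none of the 4 motifs. Per1 has an E-box that begins at position -166 from the start site and a half-site on the opposite strand at -137. Per3 has 2 D-boxes, at -205 and -158, Nr1d2 has a half-site at -77, and Arntl has a half-site 31 bases past the start. The window of Cry1 has an E-box at -60 and 1 of the 3 windows of Clock has a half-site at -119, while the windows of Dbp, Cry2 and Nr1d1 hold none of the 4 motifs. A match is a description of the letters in these windows and not evidence of binding in the thyroid.

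The first comparison asked how the clock genes differed between the diets after 3 weeks. Per1, Per3 and Nr1d2, which encode repressors of the loop, fell on the HF+SD to 0.467, 0.500 and 0.515 of their CD level. Arntl, their activator, averaged 34.9 ± 7.85 CPM against 20.2 ± 8.36, in the direction opposite to its repressors, but did not pass the test, and Dbp averaged 29.6 ± 26.2 against 58.2 ± 21.2 without passing it either. Clock, Cry1 and Cry2 lay within the spread between mice.

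By edgeR's quasi-likelihood test, 3 of the 10 members were called at an adjusted p under 0.05, all 3 lower, where 14.9% of all 17238 tested genes were called and 5.78% were called lower. With the study's added requirement of an absolute log2 fold change above 1, only Per1 was called, against 4.66% of all genes. The 2 diets did not overlap in CPM for 3 members, the same 3, against 23.6% of all genes. The point estimate was negative for 7 of 10 members, with a median log2 fold change of -0.51 beside -0.01 over all genes tested. Per1 was called in every alternative run but 1, the fit of all 16 libraries together, which takes its spread from both time points and called no member (adjusted edgeR p of 0.306 for Per1, 0.413 for Per3 and 0.0705 for Nr1d2). Beside these calls, the summed share of the adipocyte genes (led by Fabp4 and Ucp1) ran from 0.0839% to 0.111% in CD mice against 0.0260% to 0.0575% in HF+SD mice, and that of the endothelial genes (led by Kdr and Pecam1) from 0.0342% to 0.0414% against 0.0611% to 0.0873%. No gene of either list was at 0 in all libraries, and their part in the clock gene values was not tested.

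**Figure D1:**
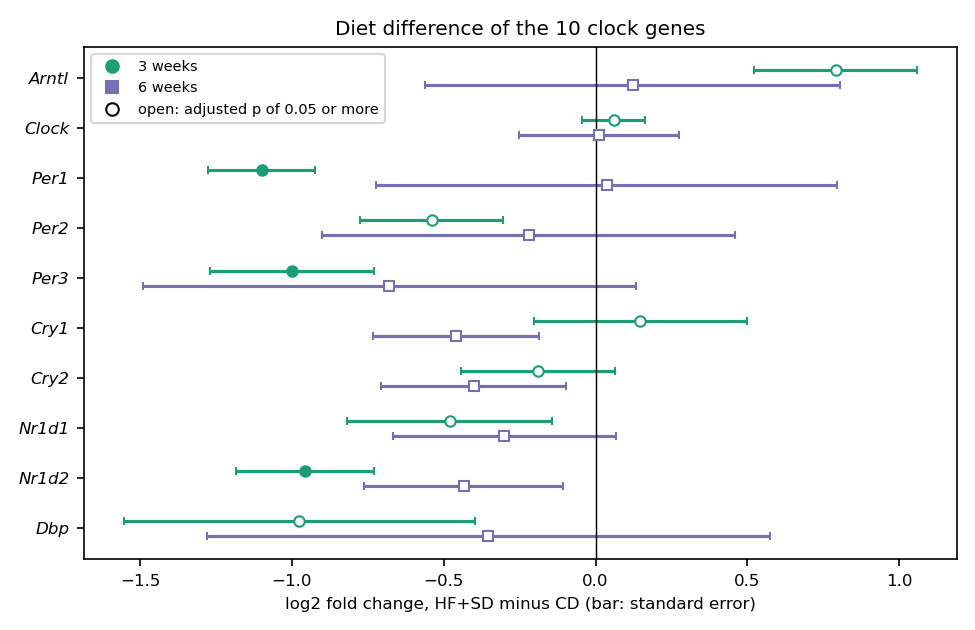
Log2 fold change of each clock gene, HF+SD minus CD, at 3 weeks (circles) and 6 weeks (squares), from edgeR with 4 mice per group, where bars are the standard error and filled symbols mark an adjusted p under 0.05. Filled symbols appear at 3 weeks only, for Per1 (-1.10), Per3 (-0.999) and Nr1d2 (-0.96), and the bars of Per1, Per3, Arntl and Dbp are longer at 6 weeks than at 3 weeks.

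Of the activators at 3 weeks, Arntl stood at 17.01, 19.04, 32.1 and 12.6 CPM in the CD mice M53, M54, M55 and M96 and at 34.1, 42.4, 38.8 and 24.3 CPM in the HF+SD mice M7, M19y, M20y and M31. Only the CD mouse M55 reached the HF+SD range, and only the HF+SD mouse M31 lay in the CD range. The log2 fold change was 0.79 ± 0.27 (SE, n = 4 per group, edgeR adjusted p = 0.0775), and the exact two-sided permutation test of the 8 log2 values gave p = 0.0571. Arntl passed the threshold with DESeq2 (adjusted p = 0.0258), with a muscle score as covariate (0.0104) and without M55 (0.00485), and its adjusted p ran up to 0.461 in the other alternatives. The muscle genes behind that score took at most 0.00993% of the counts of any mouse at 3 weeks, so the score there rests on few counts. Clock, the partner of Arntl, ran from 90.3 to 109.8 CPM on the CD and from 91.3 to 122 CPM on the HF+SD, with a log2 fold change of 0.06 ± 0.10 (edgeR adjusted p = 0.732).

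Of the Period genes, which form the repressor complex with the Cry proteins, Per1 stood at 102, 102, 87.7 and 84.6 CPM in the CD mice and at 37.6, 52.6, 54.9 and 30.6 CPM in the HF+SD mice, in the order of mice above. Every HF+SD mouse lay below every CD mouse. The log2 fold change was -1.10 ± 0.18 (edgeR adjusted p = 0.00356), and the exact permutation p was 0.0286, the smallest that 4 against 4 mice can give. Per3 stood at 17.2, 25.2, 17.97 and 29.7 CPM on the CD and at 12.7, 7.50, 8.20 and 16.6 CPM on the HF+SD. These groups did not overlap either, but M31 on the HF+SD and M53 on the CD came within 1 CPM of each other. The log2 fold change of Per3 was -0.999 ± 0.27 (edgeR adjusted p = 0.0353), and its call was lost when M54, M96, M7, M19y or M20y was left out (adjusted p of 0.0639 to 0.102). Per2 ran from 26.0 to 38.7 CPM on the CD and from 13.6 to 29.3 CPM on the HF+SD, overlapping through M53, with a log2 fold change of -0.54 ± 0.23 (edgeR adjusted p = 0.151).

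The Cry genes, whose proteins are the direct inhibitors of ARNTL and CLOCK, did not separate the diets at 3 weeks. Cry1 ran from 3.64 to 11.9 CPM on the CD and from 5.62 to 8.65 CPM on the HF+SD (log2 fold change 0.15 ± 0.35, edgeR adjusted p = 0.807). Cry2 ran from 19.7 to 41.8 CPM on the CD and from 21.96 to 33.6 CPM on the HF+SD (-0.19 ± 0.25, edgeR adjusted p = 0.651). For both genes the HF+SD mice lay inside the range of the CD mice.

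Of the genes for the REV-ERB receptors, Nr1d2 stood at 130.0, 141, 185 and 145 CPM in the CD mice and at 103, 45.4, 69.0 and 92.3 CPM in the HF+SD mice. The groups did not overlap, and M19y was the lowest. The log2 fold change was -0.96 ± 0.23 (edgeR adjusted p = 0.0214), and the call was lost without M20y (adjusted p = 0.0674), which left Per1 as the only member called. With the muscle score as covariate, Nr1d2 had an adjusted p of 0.0878. Nr1d1 ran from 128 to 209.7 CPM on the CD and from 54.8 to 214 CPM on the HF+SD, where M31 was higher than every CD mouse and M19y and M20y (111.6 CPM) were lower than all of them, and its log2 fold change was -0.48 ± 0.34 (edgeR adjusted p = 0.367).

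Dbp, the output gene, stood at 35.7, 63.8, 48.5 and 84.9 CPM in the CD mice and at 35.3, 8.42, 10.2 and 64.3 CPM in the HF+SD mice. The HF+SD mice split, with M19y and M20y far below the CD range, M7 just under it and M31 within it. The log2 fold change was -0.98, as large as those of Per3 and Nr1d2, but its standard error of 0.58 exceeded those of the 3 called members (0.18 to 0.27), and the edgeR adjusted p was 0.285. M19y and M20y also had the highest Arntl and the lowest Per3 of the 8 mice.

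**Figure D2:**
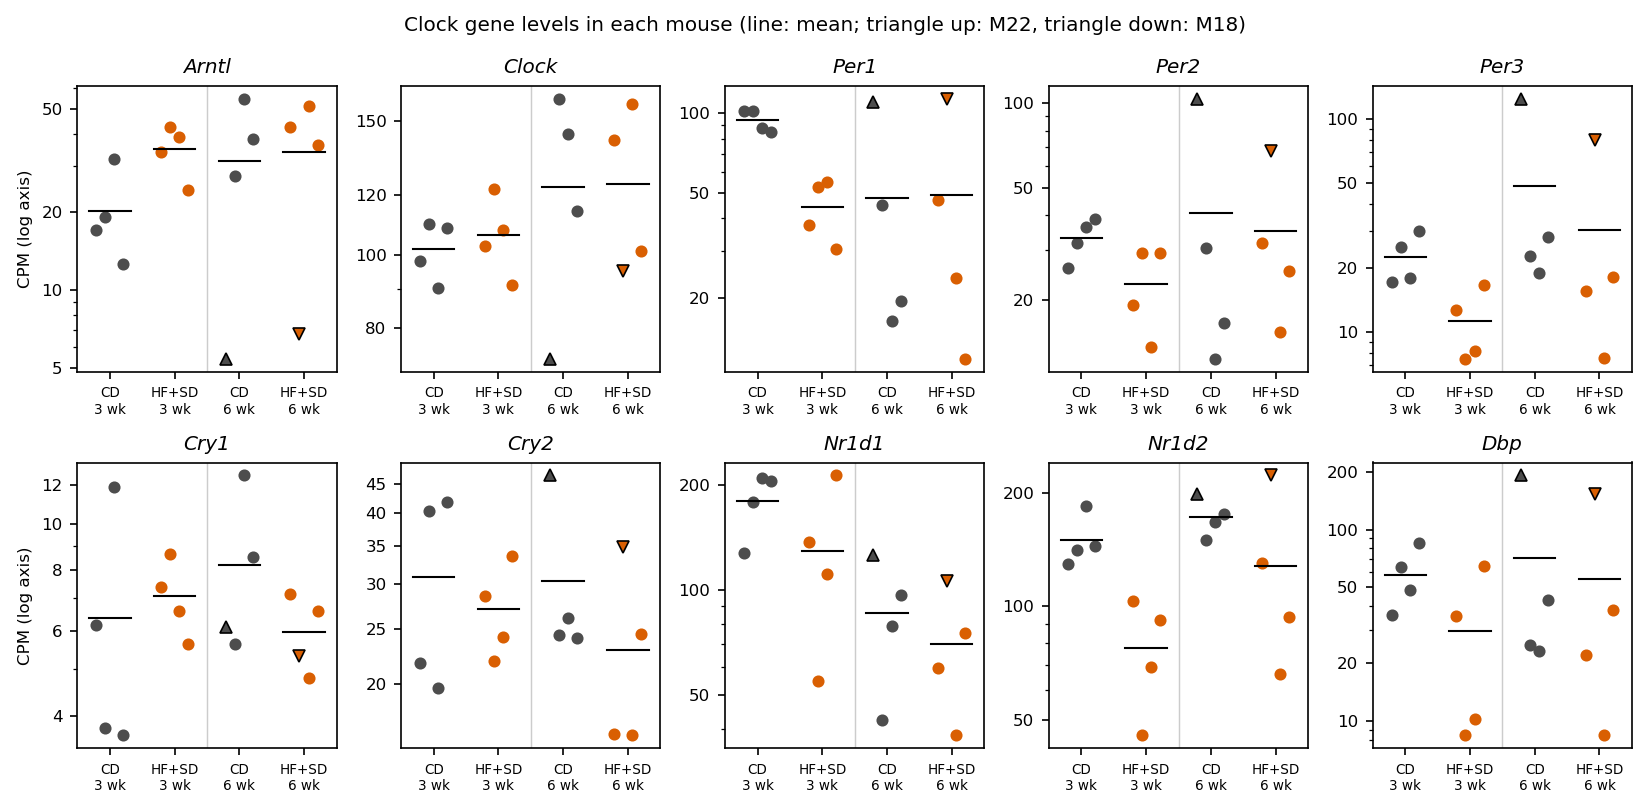
CPM of each clock gene in each mouse on a log axis that differs between panels, with CD in grey and HF+SD in orange, 3 weeks left and 6 weeks right of the vertical line, and a horizontal line at each group's mean. At 3 weeks the 2 diets do not overlap for Per1, Per3 and Nr1d2, and at 6 weeks M22 (CD, triangle up) and M18 (HF+SD, triangle down) lie together at the low end of Arntl and at the high end of Per1, Per2, Per3 and Dbp.

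A wider list of 21 genes that belong to or regulate the clock was taken from textbook knowledge. Of these, 20 were in the table (Rorb was not analysed here) and all 20 were tested. At 3 weeks, 4 of the 20 were called, 2 higher and 2 lower, where 14.9% of all 17238 tested genes were called. The median log2 fold change of the 20 was -0.23 beside -0.01 over all genes. Nfil3, a repressor that competes with DBP at D-boxes, rose from 2.20, 3.498, 4.86 and 1.61 CPM in the CD mice to 6.80, 9.496, 9.31 and 5.07 CPM in the HF+SD mice (log2 fold change 1.34 ± 0.34, edgeR adjusted p = 0.0263). Tef, a PAR bZIP factor related to DBP, fell from 61.9, 78.7, 75.6 and 115 CPM to 54.2, 27.1, 33.5 and 55.2 CPM (-0.96 ± 0.26, adjusted p = 0.0328). For both genes the diets did not overlap, as for 23.6% of all tested genes, and M19y and M20y were again at the far end of the HF+SD group. Timeless, a gene that also acts at the replication fork, rose from a mean of 7.68 to 11.1 CPM (0.54 ± 0.12, edgeR adjusted p = 0.0187). None of the 4 was called without M19y (0 of 20), and 6 of 20 were called without M55. Over all tested genes, 1645 of 17480 were called without M19y and 3393 of 17527 without M55. Only Timeless was called without M20y, and the fit of all 16 libraries called 0 of 20.

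**Figure D3:**
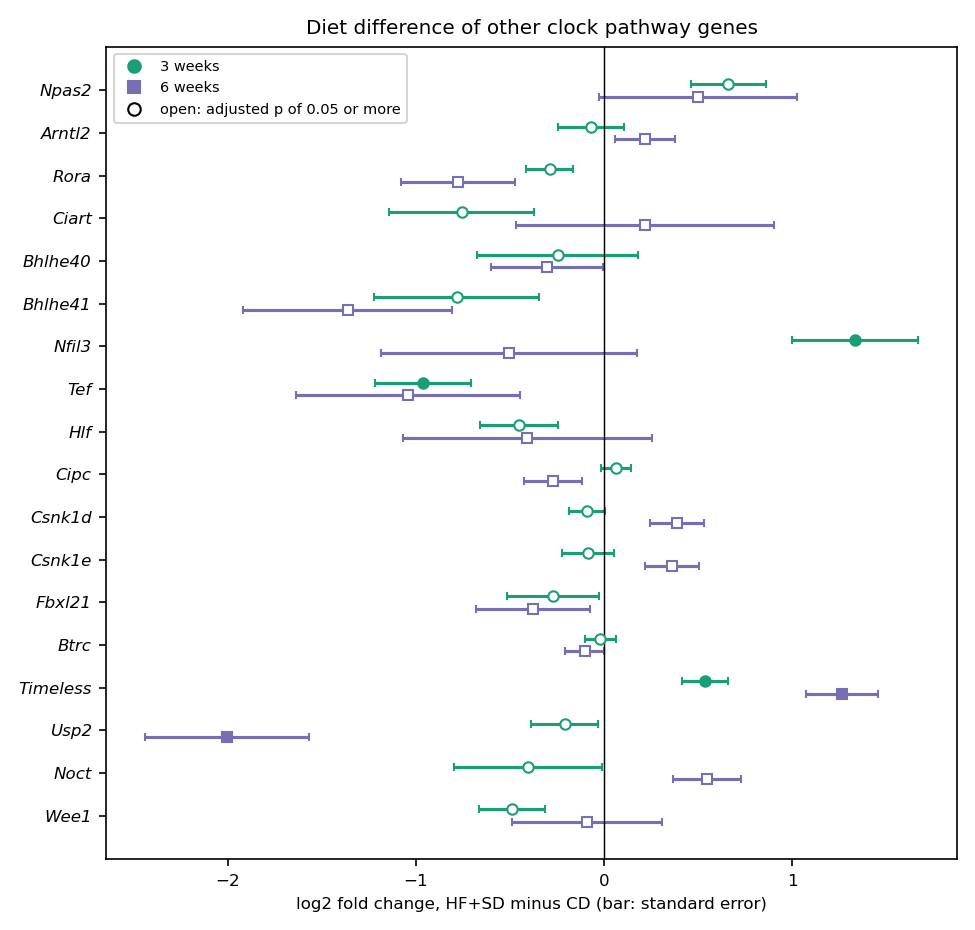
Log2 fold change, HF+SD minus CD, of other clock pathway genes at 3 weeks (circles) and 6 weeks (squares), with standard errors from edgeR and 4 mice per group. Filled symbols (adjusted p under 0.05) mark Nfil3, Tef and Timeless at 3 weeks and Usp2 and Timeless at 6 weeks, and Timeless is the only gene shown that is filled at both.

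A further 3 lists were counted because the Per genes also respond to hormones, stimulation and temperature. At 3 weeks, 1 of 6 glucocorticoid-responsive genes (led by Klf9 and Sgk1) was called higher and 2 lower, 0 of 7 immediate early genes (led by Fos and Junb) were called by edgeR (1 at an unadjusted p under 0.05), and 3 of 8 temperature-responsive genes (led by Hspa8 and Hsp90aa1) were called lower. At 6 weeks these counts were 2 higher and 1 lower of 6, 0 of 7 (1 at an unadjusted p under 0.05), and 1 higher of 8. Their summed shares of counts overlapped between the diets at both times for all 3 lists. The mean log2 CPM of the temperature-responsive genes did not overlap at 3 weeks, at 6.34 to 6.98 in CD mice against 6.23 to 6.30 in HF+SD mice. Of all tested genes, 14.9% were called at 3 weeks and 21.5% at 6 weeks. The part of the 3 lists in the clock gene values was not tested.

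The second comparison asked the same after 6 weeks, and no clock gene differed between the diets beyond the spread between mice. By edgeR, 0 of 10 members were called at an adjusted p under 0.05, against 21.5% of all 18249 tested genes (9.55% lower and 12.6% with the study's fold requirement), and 0 of 10 had an unadjusted p under 0.05, against 36.2%. Limma also called 0 of 10, and DESeq2 called none but gave no adjusted p for Per3. No member had groups that did not overlap, against 23.8% of all genes. The point estimate was negative for 7 of 10 members, with a median log2 fold change of -0.33 beside -0.01 over all genes. When libraries were scaled to the thyrocyte genes instead, the median over all tested genes shifted by -0.52 (log2). In that setting 4 members were called lower (Cry1, Cry2, Nr1d1 and Nr1d2), where 6888 of all 18249 tested genes were called. Their log2 fold changes of -1.02, -0.93, -0.84 and -1.02 include that shift.

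Within each diet at 6 weeks, 1 mouse stood apart from the other 3, and the pair resembled each other across the diets. Arntl stood at 5.42, 27.5, 54.4 and 38.2 CPM in M22, M43, M45 and M48 on the CD and at 42.6, 6.74, 51.1 and 36.0 CPM in the HF+SD mice M5, M18, M34 and M35. M22 and M18 were the lowest of the 8 by a wide margin. Dbp showed the reverse, at 192, 25.1, 23.3 and 42.9 CPM in the CD mice and 22.02, 153, 8.43 and 37.9 CPM in the HF+SD mice, so that M22 and M18 were the highest. The mean CPM of the 2 diets did not show this, at 31.4 ± 20.5 and 34.1 ± 19.3 for Arntl and 70.7 ± 81.1 and 55.3 ± 66.2 for Dbp (SD, n = 4).

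The Period genes followed Dbp in these mice. Per1 stood at 110.4, 44.7, 16.2 and 19.4 CPM in the CD mice and 47.0, 113, 23.6 and 11.7 CPM in the HF+SD mice. Per2 was at 104 CPM in M22 and 67.7 CPM in M18, against 12.3 to 31.7 CPM in the other 6 mice, and Per3 was at 124 and 79.7 CPM against 7.53 to 27.9 CPM. The REV-ERB genes had smaller gaps, with Nr1d1 at 126 and 106 CPM against 38.3 to 96.7 CPM and Nr1d2 at 199 and 223 CPM against 65.99 to 177 CPM. Cry2 was at 46.6 and 34.8 CPM against 16.3 to 26.1 CPM, and Clock was at 72.9 and 95.3 CPM against 101 to 161 CPM. Cry1, at 6.11 and 5.33 CPM, was the 1 member in which M22 and M18 lay inside the range of the others (4.80 to 12.6 CPM).

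M22 and M18 were singled out by their values of the clock genes, so their share among the members follows in part from that choice and is not a test. As a description made after the values were seen, M22 and M18 were the 2 highest or the 2 lowest of the 8 libraries for 9 of 10 members (90.0%), for 7 of the 20 other clock pathway genes (35.0%) and for 1105 of 18249 tested genes (6.06%). Those 7 were Ciart, Tef, Hlf, Cipc and Wee1 at the high end and Npas2 and Nfil3 at the low end. Npas2, which can replace Clock as partner of ARNTL, was at 6.198 CPM in M22 and 3.04 CPM in M18 against 9.501 to 21.3 CPM. Hlf, the remaining PAR bZIP gene, was at 31.7 and 26.7 CPM against 3.96 to 10.6 CPM.

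**Figure D4:**
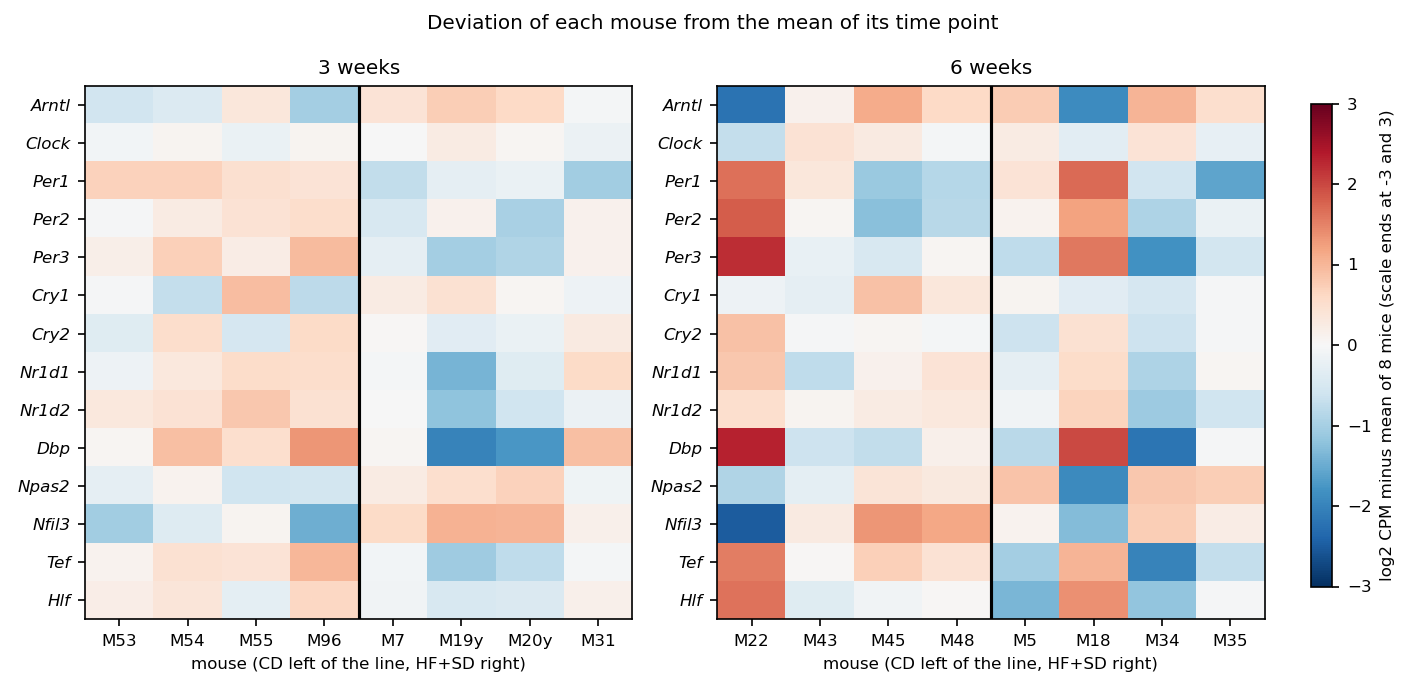
Log2 CPM of the 10 clock genes and 4 other clock pathway genes (Npas2, Nfil3, Tef and Hlf) in each mouse, minus the mean of the 8 mice of that time point, with red above and blue below the mean and CD left of the black line. M22 and M18 at 6 weeks are low in Arntl, Npas2 and Nfil3 and high in Per1, Per2, Per3, Dbp, Tef and Hlf on both diets, and M19y and M20y at 3 weeks are high in Arntl and low in Dbp.

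With these mice in the fit, the standard errors of 9 of 10 members were larger than at 3 weeks, the exception being Cry1 (0.35 at 3 weeks and 0.27 at 6 weeks). That of the log2 fold change was 0.18 at 3 weeks and 0.76 at 6 weeks for Per1, 0.27 and 0.68 for Arntl, 0.27 and 0.81 for Per3, and 0.58 and 0.93 for Dbp. The fold changes themselves were 0.04 for Per1, 0.12 for Arntl, -0.22 for Per2, -0.68 for Per3, 0.01 for Clock, -0.46 for Cry1, -0.40 for Cry2, -0.30 for Nr1d1, -0.43 for Nr1d2 and -0.35 for Dbp, with edgeR adjusted p from 0.258 (Cry1) to 0.980 (Clock). Without M22 and M18, 0 of 10 members were called by edgeR and 2 of 10 had an unadjusted p under 0.05, with the lowest adjusted p at 0.0624 (Nr1d2, log2 fold change -0.76). M22 and M18 also had the smallest muscle shares of the libraries of 6 weeks (0.104% and 0.125%). Each had the largest thyrocyte share of its diet (11.8% and 14.8%). Each also had the largest immediate early share of its diet. That share was 0.0371% in M22, against 0.00416% to 0.00982% in the other CD mice. It was 0.0704% in M18, against 0.00615% to 0.0434% in the other HF+SD mice. The parathyroid share of M22 was 1.71%, against 0.156% to 0.451% in the other CD mice. That of M18 (0.195%) lay within the range of the other HF+SD mice (0.0507% to 0.206%). The part of these shares in the clock gene values was not tested. The CD mice M43, M45 and M48 held 3.83% to 16.2% muscle counts. A fit without them left M22 as the only CD mouse, assumed to vary like the HF+SD mice. Its log2 fold change for Per1 was -1.18, against 0.04 with all CD mice. With the muscle score as covariate, 0 of 10 were called (4 at an unadjusted edgeR p under 0.05).

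Of the 20 other clock pathway genes, 3 were called at 6 weeks, 1 higher and 2 lower, where 21.5% of all 18249 tested genes were called. Usp2, a deubiquitinase with rhythmic expression, fell from 8.49, 13.7, 37.6 and 27.8 CPM in the CD mice to 7.30, 5.77, 4.28 and 4.49 CPM in the HF+SD mice (log2 fold change -2.002 ± 0.44, edgeR adjusted p = 0.0137). M45 and M48, the mice with the most muscle counts (16.2% and 11.6%), were the highest in Usp2, and it was not called with the muscle score as covariate or without M43, M45 and M48. Timeless rose from 8.24, 4.84, 5.07 and 5.97 CPM to 13.4, 14.05, 15.5 and 15.02 CPM (1.27 ± 0.19, adjusted p = 0.00268) and was the 1 of 20 called with the muscle covariate, but it was not called without M43, M45 and M48. Without M22, 7 of 20 were called, where 5743 of all 18645 tested genes were. Without M22 and M18, 6 of 20 were called, where 4072 of all 18475 were.

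Whether the diet difference itself changed between 3 and 6 weeks was tested as an interaction. By edgeR 0 of 10 members passed, and 0 had an unadjusted p under 0.05, where 0.0792% of all 18929 tested genes passed. That background depended on single libraries and on the tool, with 15 genes called in the reported fit, 1 to 2715 when mice were left out in turn (2715 without M22 and 1285 without M43) and 1790 with DESeq2. DESeq2 also called 0 of 10 members, and without M22 edgeR called 0 of 10, with 2 at an unadjusted p under 0.05. The difference of the log2 fold changes (6 weeks minus 3 weeks) was 1.08 ± 0.84 for Per1 (edgeR adjusted p = 0.481), 0.26 ± 0.93 for Per3 (0.901), 0.46 ± 0.43 for Nr1d2 (0.563) and -0.73 ± 0.81 for Arntl (0.633). The falls of Per1, Per3 and Nr1d2 at 3 weeks were thus not shown to differ from their values at 6 weeks.

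The ratio of Arntl to Dbp counts needs no scaling between libraries and sets an activator gene of the loop against an output gene within a mouse. Without strand in the counting, some Dbp counts could be Sphk2 reads (478 to 2215 counts for Sphk2 and 290 to 6678 for Dbp). On the log2 scale the ratio was -1.07, -1.74, -0.60 and -2.75 in the CD mice of 3 weeks, and -0.05, 2.33, 1.93 and -1.40 in the HF+SD mice of 3 weeks. All HF+SD mice but M31 lay above all CD mice. At 6 weeks it was -5.14, 0.13, 1.22 and -0.17 in the CD mice and 0.95, -4.50, 2.60 and -0.07 in the HF+SD mice. Mice of the same diet differed by 6.37 and 7.10 on the log2 scale at 6 weeks, against 2.15 and 3.74 at 3 weeks, and the group means at 6 weeks were -0.99 ± 2.83 and -0.26 ± 3.04 (SD, n = 4).

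**Figure D5:**
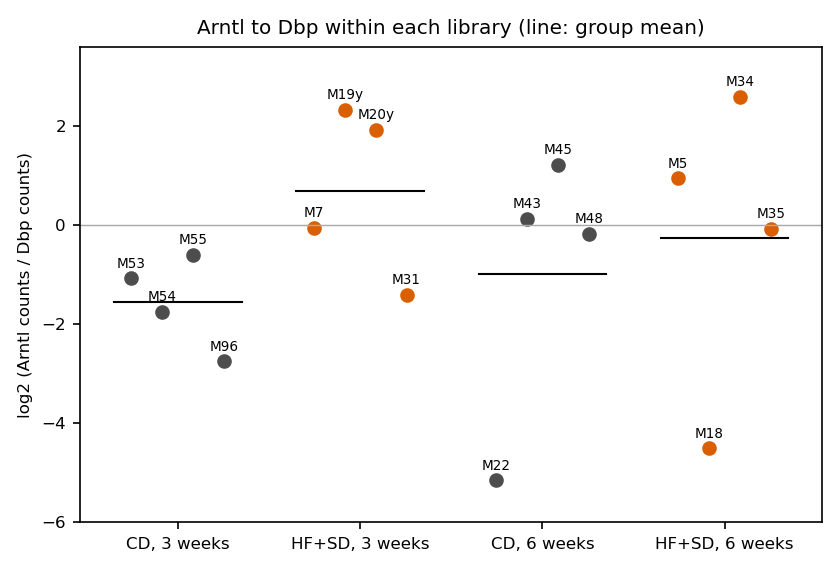
Log2 of Arntl counts over Dbp counts in each of the 16 libraries, by diet and time, with the group mean as a line and each mouse named. M22 (-5.14) and M18 (-4.50) lie below all the other libraries, on different diets, and the 6 other mice of 6 weeks lie between -0.17 and 2.60.

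Across the mice, Arntl and Dbp were compared as log2 CPM centred on each group's mean, in a family of 4 relations. Since M22 and M18 form a cluster of their own, r is given without them or at 3 weeks. Over the 8 mice of 3 weeks, Pearson's r was -0.61 (permutation p = 0.0489, adjusted 0.0652) and Spearman's rho was -0.64 (permutation p = 0.0832, adjusted 0.111), and r was -0.83 without M55 and M96, the 2 farthest in Arntl. Over the 6 remaining mice of 6 weeks, r was -0.32 (permutation p = 0.443, adjusted 0.443) and rho was -0.26 (permutation p = 0.584, adjusted 0.584), and r was -0.92 without M43 and M45, so that its size rested on which mice were kept. Over the 14 mice of both times, r was -0.51 (permutation p = 0.0344, adjusted 0.0652), rho was -0.54 (permutation p = 0.0515, adjusted 0.103), and r without M55 and M96 was -0.55. None of these 3 passed 0.05 after adjustment. The fourth relation, over all 16 mice, did pass (adjusted permutation p of 0.00544 for r and 0.018 for rho), but it pools M22 and M18 with the rest.

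Likeness to Arntl and to Dbp was measured as Pearson's r of the same centred log2 CPM over all 16 mice, for 12400 genes with a mean log2 CPM of at least 1, and again over the 14 mice without M22 and M18. It is a description across libraries that share diets and, at 6 weeks, the 2 mice that stood apart, and no p is given. The gene most like Arntl was Nfil3 (r = 0.95 over 16 mice and 0.94 over 14), followed by Leo1 (0.94 and 0.76), Fgd3 (0.92 and 0.73), Tmprss13, Sh3pxd2a, Ppa1, Col5a3, Glipr2, Gadd45g and Arpp19. Nfil3 kept its value without the pair, while Glipr2 dropped from 0.86 to 0.15 and Col5a3 from 0.88 to 0.48. The genes most opposite to Arntl were Susd1 (-0.98 and -0.90), Gm12992 (-0.95 and -0.78), Per3 (-0.93 and -0.60), Tmem243 (-0.92 and -0.88), Entpd5, Safb2, Dcxr, Cog7, Pfkl and Syde2.

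Among the 10 genes most like Dbp, 4 were clock genes: Per3 (0.95 over both 16 and 14 mice), Tef (0.92 and 0.86), Hlf (0.87 and 0.69) and Nr1d1 (0.85 and 0.83). The other 6 were Rasl12 (0.88 and 0.86), Slc5a6, Tg, Tns2, Tspan4 and Rsad1, where Tg, the thyroglobulin gene, dropped from 0.86 to 0.64. The genes most opposite to Dbp were Glipr2 (-0.91 and -0.86), Clock (-0.82 and -0.66), Arntl (-0.82 and -0.51), Fbxo28 (-0.79 and -0.70), Klhl13, Yae1d1, 9430038I01Rik, Btf3l4, Eif4a2 and Ccdc25. Of these 10, 2 were clock genes, as was 1 of the 10 most like and 1 of the 10 most opposite to Arntl. Of the members, Per1 moved the most in its r to Dbp, from 0.43 over 16 mice to -0.48 over 14. Cry1 was the 1 member besides Clock that ran with Arntl over 16 mice (r = 0.50), and it kept that over 14 mice (0.78) while Clock did not (0.73 and 0.10).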

How the data were processed

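Poly(A) RNA from 16 mouse thyroids was sequenced as paired reads. Per the submitters' processing notes, the tools were Trim Galore 0.6.7, STAR, DESeq2 1.36.0 and R 4.1.0 and the genome build was mm39. The sources used here do not state the annotation or the use of strand in counting. The authors deposited raw counts per gene and a normalized signal, which is the count divided by a size factor per library. Counts entered all tests, and the deposited signal served 1 limma alternative on log2(value + 1). All columns matched a sample (0 unmatched).

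Gene identifiers were named through GENCODE M21 (20841 of 21640), which also gave exon lengths and overlaps. For each time point the HF+SD was set against the CD in edgeR 4.0.16 under R 4.3.3 (TMM, filterByExpr, glmQLFit and glmQLFTest, Benjamini-Hochberg over all tested genes), with mice as replicates, and the interaction was fitted on all 16 libraries. Standard errors were obtained as the size of the log2 fold change over the square root of F. Mice are not paired. Between mice of a group the chi-square of the counts was 15.1 to 871 per gene, beyond counting error. Log2 CPM used a prior count of 2. Exact permutation tests were two-sided, and p-values of correlations came from 1e+05 permutations. Alternatives were DESeq2 1.42.0, limma 3.58.1, no filter, upper-quartile or thyrocyte scaling, the mean log2 CPM of the muscle genes as covariate, all 16 libraries in 1 fit, the study's fold rule, omission of each mouse and, chosen after seeing the data, of M22 and M18. The study states another number of CD mice at 6 weeks without naming them, so all 4 were used. The scripts were tested on simulated data.

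Members, gene lists and tests were chosen with earlier results of these data known. Text names all members, other clock pathway genes called at either time (some are not reported here by name), the 10 genes with the highest and the 10 with the lowest r to Arntl and to Dbp, and of other lists at most the 2 members with the most counts. Npas2, Hlf, Ciart, Cipc and Wee1 fall outside this rule and were named after their values were seen.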

Additional observations from a re-analysis of the deposited data

Results flagged for a closer look

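Each member was examined in each of the 4 groups, 40 sets of 4 mice in all, for a highest or lowest mouse whose gap to the next, as a share of the group's range in log2 CPM, exceeded Dixon's critical value for 4 samples. Chance flags about 1 in 20 groups. One value was flagged: Cry2 in the CD mouse M22 at 6 weeks, at 46.6 CPM, where the other CD mice had 24.2 to 26.1 CPM and the gap was 0.880 of the range. The cause was not tested. No member's diet difference passed the interaction test between 3 and 6 weeks.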

How the results depend on the processing

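At 3 weeks the count of members called, 3 in the reported fit, was 1 with the study's fold rule and 0 in the fit of all 16 libraries, and ran from 1 (without M20y) to 4 (without M55) when mice were left out in turn. The count of other clock pathway genes, 4 of 20, was 1 with the fold rule, 2 with the muscle covariate and 0 with all 16 libraries, and ran from 0 to 6 without single mice. At 6 weeks the members called were 0 in all alternatives but the thyrocyte scaling (4), which shifted all genes by -0.52. That scaling called 6888 of all 18249 tested genes. The other clock pathway genes, 3 of 20, were 6 with DESeq2, 10 with thyrocyte scaling, 1 with the muscle covariate, 0 without M43, M45 and M48, 6 without M22 and M18, and 2 to 7 without single mice. For the interaction no alternative called a member, also under thyrocyte scaling, which moved all genes by -0.39.

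Fold changes that turned their sign, none of them past the threshold, were the following. At 3 weeks, thyrocyte scaling gave -0.0087 for Clock, and leaving out single mice gave -0.015 to 0.126 for Clock and -0.047 to 0.64 for Cry1. At 6 weeks, Clock was -0.014 with DESeq2, -0.52 with thyrocyte scaling, -0.057 without M22 and M18, -0.043 with all 16 libraries and -0.17 to 0.13 without single mice. Arntl was -0.42 with thyrocyte scaling and -0.22 to 0.50 without single mice. Per1 was -0.44 with thyrocyte scaling, -0.91 with the muscle covariate, -0.014 with upper-quartile factors, -0.053 with limma, -1.18 without M43, M45 and M48, -0.021 with all 16 libraries and -0.79 to 0.87 without single mice. Per2 was 0.059 with limma, 0.29 without M22 and M18 and -0.75 to 0.82 without single mice, Per3 ran from -1.81 to 0.39 and Dbp from -1.63 to 0.87. The upper ends of Per2, Per3 and Dbp are the values without M22. The causes were not tested. No paired analysis was possible because the labels give each mouse its own name and no number is shared between groups. With 4 mice per group, a difference within the spread between mice at 6 weeks was not detectable here.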
